A study of Mus musculus with 6 samples.

Results

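The genes described are 10 components of the checkpoint pathways headed by the kinases ATM and ATR: Atm, Atr, Atrip, Topbp1, Rad9a, Hus1, Rad1, Chek1, Chek2 and Wee1. They were matched by symbol, and all 10 were found among the 22274 genes of the deposited table. The choice of genes was made with earlier results of these data known. Messenger RNA was sequenced from whole testes of mice labelled day 9, in 3 libraries labelled control and 3 labelled conditional Dcaf2 knockout (cKO). In the knockout, floxed Dcaf2 (Dcaf2 fl/fl) was deleted with Stra8-Cre, a recombinase driven by the promoter of a gene of differentiating germ cells. The labels do not give the alleles of the controls, do not say from which event the 9 days were counted, and do not say whether each numbered library is a separate animal, and the p-values therefore speak of spread among these libraries, some of which can be technical.

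DNA damage checkpoints hold the cell cycle while DNA is repaired or replication is completed. ATM is switched on mainly at double-strand breaks and phosphorylates the effector kinase CHK2, while ATR, bound to its partner ATRIP, is recruited to single-stranded DNA coated with RPA and phosphorylates CHK1. Full ATR activity needs TOPBP1 and a ring-shaped clamp of RAD9, HUS1 and RAD1 (the 9-1-1 clamp), and WEE1 restrains cyclin-dependent kinases by inhibitory phosphorylation. Spermatogonia use these pathways in mitotic S phase, and spermatocytes use them again on the breaks and unpaired chromosomes of meiosis. They act largely through phosphorylation of proteins, which messenger RNA levels do not measure.

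In the comparison of all 6 libraries, 0 of the 10 checkpoint genes passed the test for a difference between knockout and control testes (edgeR quasi-likelihood test, adjusted p under 0.05), where 25.0% of the 14424 tested genes did. The count was also 0 at an unadjusted p under 0.05 (39.1% of tested genes), and 0 with DESeq2 (1 at an unadjusted p under 0.05) and with limma-voom (0), where 27.6% and 24.9% of tested genes passed. The control and knockout ranges overlapped for all 10, whereas they did not overlap for 44.6% of tested genes. The median log2 fold change of the 10 was -0.08, beside 0.03 over all tested genes, with 7 values below 0 and 3 above. Log2 fold changes are knockout against control, levels are in CPM, TMM-scaled counts relative to library size, and all 10 genes passed the filter on low counts.

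**Figure D1:**
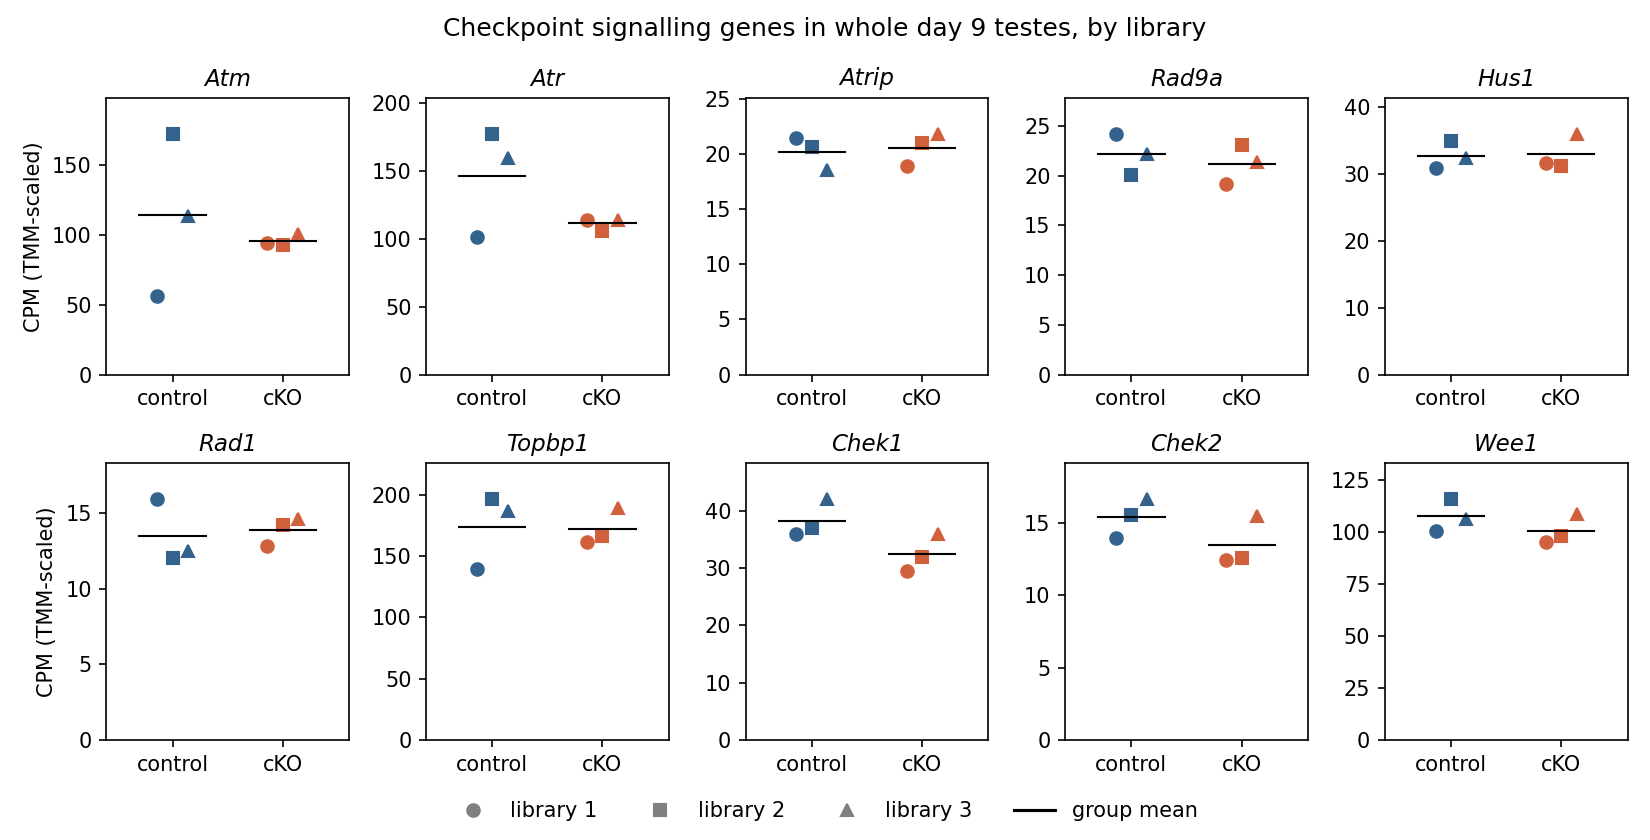
Level of each checkpoint gene in each library, in CPM from 0 on the vertical axis, with 3 control and 3 knockout (cKO) libraries and a line at each group mean (n = 3). Control library 1 is the lowest library for Atm at 56.2 CPM and for Atr at 102 CPM, and the highest for Rad1 at 15.9 CPM; the groups overlap for every gene.

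Atm and Atr, which encode the apical kinases, had the widest spread of the 10 among controls. Atr (ENSMUSG00000032409) measured 102, 177 and 160 CPM across the control set, beside 114, 106 and 114 across the knockout set. Control libraries 2 and 3 were above all 3 knockouts, while control library 1 was below them. The log2 fold change of Atr was -0.39 (SE 0.181, 95% interval -0.80 to 0.02, edgeR adjusted p = 0.141). Atm (ENSMUSG00000034218) measured 56.2, 172 and 113 CPM across the control set, beside 93.7, 92.9 and 100.2 across the knockout set, so that the controls lay on both sides of a narrow knockout range. Its group values were 114 ± 57.8 and 95.6 ± 4.003 CPM (mean ± SD, n = 3 each). The log2 fold change was -0.25 with a 95% interval of -0.96 to 0.46 (edgeR adjusted p = 0.593). The highest control level of Atm was 3.06 times the lowest, a larger ratio than in 98.0% of tested genes. For Atr the ratio was 1.74, larger than in 85.9%. In the knockouts the ratio was 1.08 for each of these genes. Atrip (ENSMUSG00000025646), which tethers ATR to RPA, did not share this spread, with control levels of 21.5, 20.6 and 18.6 CPM that overlapped knockout levels of 18.9, 21.02 and 21.8 CPM (log2 fold change 0.02, 95% interval -0.24 to 0.29, edgeR adjusted p = 0.897).

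Atm and Atr have the longest transcripts of the 10, and the spread of the controls moved with transcript length across the transcriptome. The deposited counts and FPKM values give an effective length of 9816 bases for Atm and 8056 for Atr, longer than 98.6% and 96.8% of tested genes, whose median is 2810. In the longest of 10 length classes of tested genes, control library 1 was at a median of -0.44 on the log2 scale relative to the mean of the 6 libraries, against 0.13 and -0.10 in control libraries 2 and 3 and 0.12 to 0.16 in the knockouts. In the shortest class the order turned, with control library 1 at 0.37 and the other 5 libraries between -0.16 and 0.04. Control library 1 also had the lowest summed level of the 21 pan-germ-cell markers among controls (1983 CPM, against 2758 and 2661) and the highest of the 7 Leydig cell markers (915 CPM, against 467 and 439). The part of RNA quality and of cell composition in this library was not tested.

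**Figure D2:**
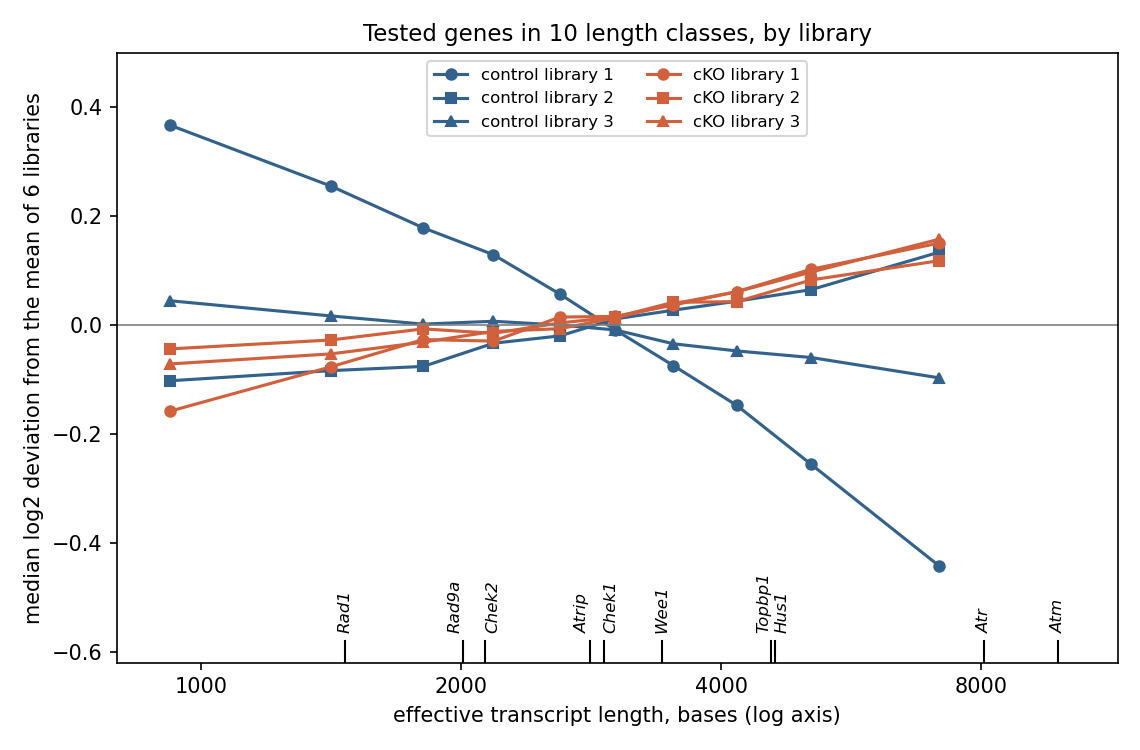
Median log2 deviation of tested genes from the mean of the 6 libraries (vertical axis), in 10 classes of effective transcript length in bases (horizontal log axis), 1 line per library, with ticks at the length of each checkpoint gene. Control library 1 runs from 0.37 in the shortest to -0.44 in the longest class, where Atr and Atm lie.

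With each library corrected for its trend on transcript length, Atr was lower in the knockouts and was the 1 of the 10 genes that passed, where 34.3% of tested genes did and 17.9% were lower. Its length-adjusted levels were 143, 159 and 169 CPM for controls 1 to 3, beside 103, 98.4 and 103 CPM for the knockouts, and the groups no longer overlapped. Rad1 also stopped overlapping after this step, in the other direction, with 13.51, 12.7 and 12.2 CPM for controls 1 to 3 beside 13.52, 14.7 and 15.3 CPM for the knockouts, but did not pass (log2 fold change 0.18, edgeR adjusted p = 0.254). The share of all tested genes without overlap after this step was not computed. Before it the share was 44.6%, so the separation of Atr and of Rad1 is a description only. For Atr the log2 fold change was -0.63 (SE 0.0773, edgeR adjusted p = 0.000475), and it passed with each of the 6 libraries also left out in turn, at -0.71 to -0.57 (adjusted p = 2.67e-05 to 0.00587). Atm had control values of 84.2, 151 and 120 CPM, beside knockout values of 83.9, 85.4 and 89.0 after the same step, with control library 1 still inside the knockout range, a log2 fold change of -0.46 and an edgeR adjusted p of 0.0528. Without control library 1 and with no length step, 3 of the 10 genes were lower and 0 higher, where 36.1% of tested genes passed and 19.7% were lower: Atr at -0.62 (adjusted p = 0.000325), Atm at -0.60 (adjusted p = 0.0079) and Chek1 at -0.31 (adjusted p = 0.0454). Without control library 2 the Atm difference was 0.16 (adjusted p = 0.667), so its direction rests on single controls. With the length step as well as control library 1 left out, 4 of the 10 genes passed, all lower, where 39.9% of tested genes passed: Atr, Atm (-0.68), Chek1 (-0.30) and Topbp1 (-0.22). With the length step and control library 2 or 3 left out, Atr alone passed, where 28.3% and 23.4% of tested genes did. It was also the 1 gene of the 10 that passed without knockout library 1, 2 or 3, where the shares were 21.8%, 18.9% and 25.1%. Beside the shares that passed in either direction, these counts lie near or below the background. Without control library 1 and with no length step, 3 of the 10 were lower beside 19.7% of tested genes. In a list of 10 genes this difference is too small to read as a result. With any other single library left out and no length step, 0 of the 10 passed. For the length step combined with a library left out, shares by direction are not given.

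**Figure D3:**
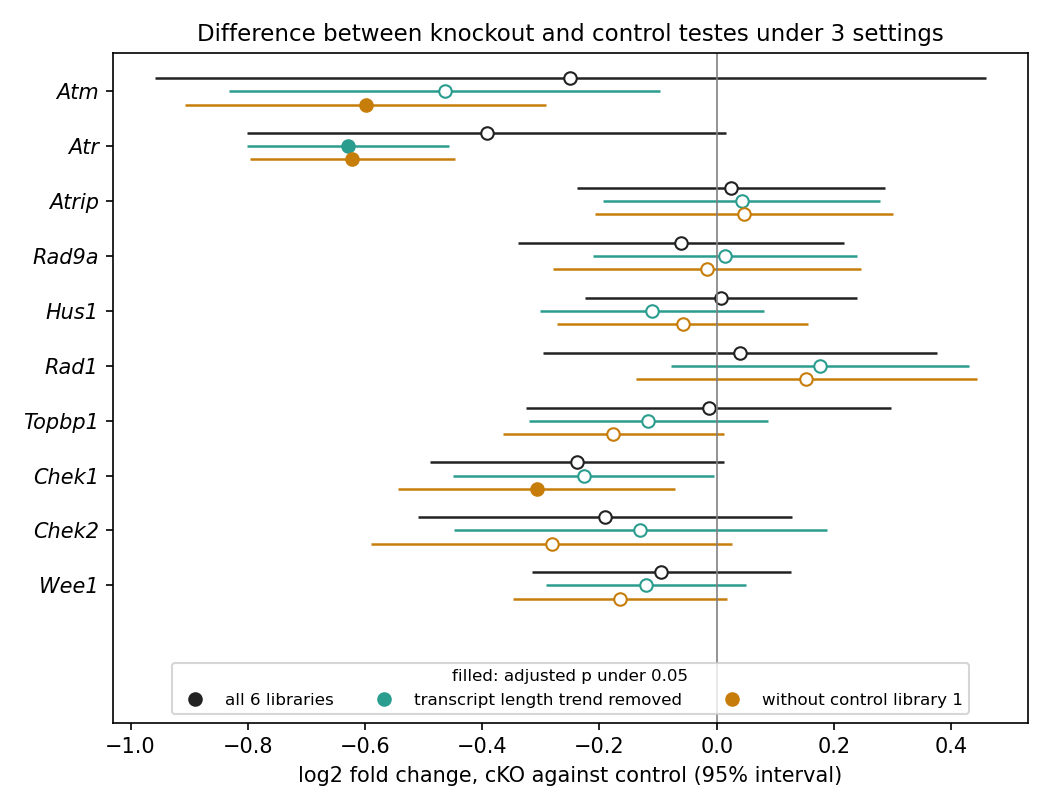
Log2 fold change of each checkpoint gene, knockout against control, with its 95% interval (horizontal axis), from all 6 libraries, with the length trend removed, and without control library 1; filled points have an edgeR adjusted p under 0.05. With all libraries 0 points are filled; Atr is at -0.63 and -0.62 in the other settings, and Atrip, Rad9a, Hus1, Rad1, Topbp1, Chek2 and Wee1 are open in all 3.

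Mean levels of the effector kinase genes and of Wee1 were lower in the knockouts, and each 95% interval included 0. Chek1 (ENSMUSG00000032113), which encodes the kinase activated by ATR, measured 35.9, 37.0 and 42.0 CPM across the control set, beside 29.5, 31.9 and 35.9 across the knockout set. The groups met only at control library 1 and knockout library 3. The log2 fold change was -0.24 (SE 0.111, 95% interval -0.49 to 0.01, edgeR adjusted p = 0.146). Chek2 (ENSMUSG00000029521), which encodes the kinase activated by ATM, had control values of 13.98, 15.6 and 16.6 CPM, beside knockout values of 12.4, 12.6 and 15.5, with knockout library 3 inside the control range. Its log2 fold change of -0.19 had a 95% interval of -0.51 to 0.13 (edgeR adjusted p = 0.348). Wee1 (ENSMUSG00000031016) measured 100.5, 116 and 106 CPM across the control set, beside 95.2, 98.1 and 109 across the knockout set, a difference of -0.09 (95% interval -0.32 to 0.13, edgeR adjusted p = 0.513).

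The genes of the 9-1-1 clamp and of TOPBP1 had nearly equal means in the groups. Rad9a (ENSMUSG00000024824) had control values of 24.2, 20.1 and 22.1 CPM, beside knockout values of 19.2, 23.1 and 21.3, with a log2 fold change of -0.06 (95% interval -0.34 to 0.22). Hus1 (ENSMUSG00000020413) measured 31.0, 35.0 and 32.4 CPM across the control set, beside 31.7, 31.2 and 36 across the knockout set, a difference of 0.01 (95% interval -0.23 to 0.24). Rad1 (ENSMUSG00000022248) had control values of 15.9, 12.0 and 12.5 CPM, beside knockout values of 12.8, 14.2 and 14.6, a difference of 0.04 (95% interval -0.30 to 0.38). Before any length step the libraries of each gene were mixed between groups, and each of the 3 intervals included 0. Topbp1 (ENSMUSG00000032555), which encodes the activator that the clamp brings to ATR, measured 139, 196 and 187 CPM across the control set, beside 161, 166 and 189 across the knockout set. Control library 1 was again the lowest, and the log2 fold change was -0.01 (95% interval -0.32 to 0.30, edgeR adjusted p = 0.953). The edgeR adjusted p was 0.744 for Rad9a, 0.969 for Hus1 and 0.865 for Rad1.

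Per transcript length, Topbp1 and Wee1 were the most abundant of the 10 in both groups. The deposited FPKM values are scaled to transcript length, for comparison between genes, but they keep each library's trend on length. In control library 1 that trend was -0.58 for Atm, -0.49 for Atr and 0.24 for Rad1 on the log2 scale. The order of genes of unlike length is therefore less certain there. In FPKM, Topbp1 was at 38.8 ± 6.63 in controls and 36.3 ± 3.55 in knockouts (mean ± SD, n = 3 each), and Wee1 at 32.1 ± 1.79 and 28.7 ± 1.99. In the controls the ranges of these 2 genes overlapped, and in the knockouts they did not. Atr followed at 18.5 ± 4.83 and 13.5 ± 0.659 FPKM, below Wee1 in every library. In both groups its range overlapped that of Chek1. Chek1, Atm, Rad9a and Rad1 came next, with control means of 13.6, 11.8, 11.2 and 9.30 FPKM and ranges that overlapped from each gene to the next. Atrip, Hus1 and Chek2 were lowest, at 7.37 ± 0.555, 7.30 ± 0.308 and 7.21 ± 0.903 FPKM in controls, and their ranges overlapped. The order was the same in the knockouts except that Rad9a (10.2 FPKM) stood above Atm (9.52 FPKM), whose ranges overlapped there too.

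**Figure D4:**
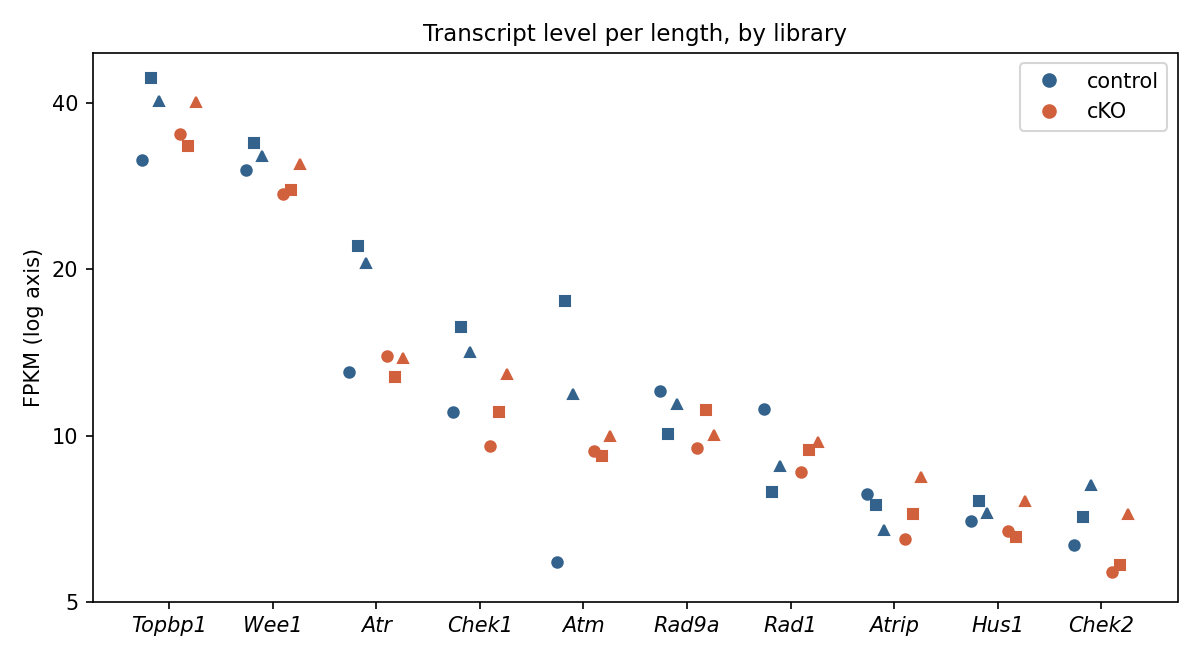
Deposited FPKM of each checkpoint gene in each library (vertical log axis), ordered by the control mean, with 3 control and 3 knockout (cKO) libraries and the marker shapes of the plot of levels by library. Topbp1 and Wee1 lie at 27.4 to 44.5 FPKM, and the lowest value is Chek2 in knockout library 1, at 5.67.

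The authors' estimate of transcript length itself varied most for Chek1 among these genes. Its effective length, weighted by the transcripts that the quantification assigned, was 3363, 2355 and 3067 bases in control libraries 1, 2 and 3 and 3037, 2810 and 2711 bases in the knockouts, where those of Atm, Atr and Wee1 were constant to within 6 bases. The groups overlapped. With this length, Chek1 was at 11.02 FPKM in control library 1 and 15.7 in control library 2, although its CPM values there were 35.9 and 37.0. The longest estimate was 1.43 times the shortest for Chek1, 1.13 times for Atrip, and 1.09 times for Topbp1 and for Chek2. For Rad9a, Rad1 and Hus1 it was 1.05, 1.04 and 1.02 times. No share over all genes was computed. The mix of transcripts is an estimate from the authors' quantification, and which transcripts differed was not analysed here.

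Ratios between the genes within a library do not depend on the scaling of libraries, and 8 such ratios were compared. They keep each library's trend on transcript length, which was not removed here, where the genes of a ratio differ in length. For 1 of them, Topbp1 to Atr, the groups did not overlap. The log2 ratio of their counts was 0.45, 0.15 and 0.22 for controls 1 to 3, beside 0.50, 0.65 and 0.73 for the knockouts, a difference of 0.35. Its two-sided exact permutation p was 0.1, the smallest that 3 against 3 libraries allow, and the adjusted p over the 8 ratios was 0.8, so no ratio could pass at 0.05. Per length, there were 2.42, 2.02 and 1.97 FPKM of Topbp1 for each FPKM of Atr in the control set, beside 2.52, 2.62 and 2.91 in the knockout set. The ratio of Chek1 to Chek2 had the smallest spread among controls, with mean log2 values of 1.32 ± 0.0591 and 1.27 ± 0.0678 (SD, n = 3 each) and an exact permutation p of 0.5. The ratio of Atm to Atr was at -0.85, -0.04 and -0.50 in the controls and at -0.29, -0.19 and -0.19 in the knockouts, inside the control range (exact permutation p = 0.4). The other 5 ratios, Atrip, Chek1 to Atr, Chek2 to Atm, and Rad9a and Hus1 to Rad1, differed by -0.11 to 0.38 with overlapping groups. Without control library 1, the groups did not overlap for 4 of the 8 ratios. Several of the ratios share Atr or Atm, and no share over other gene pairs was computed, so this count is a description only.

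Genes whose products work beside these 10 were taken from a list of 38 partner genes in 8 groups by role. The list was chosen with earlier results of these data known, and it includes the meiotic genes Hormad1 and Hormad2. Its shares beside those of all tested genes are therefore a description only. All 38 were tested: 13 fell and 0 rose (edgeR adjusted p under 0.05), which is 34.2%, where 13.9% of all tested genes fell and 11.1% rose. The median log2 fold change of the 38 was -0.26. The groups did not overlap for 19 partner genes that were lower and for 1 that was higher, where the shares of all tested genes were 22.1% and 22.5%. The single higher one was Rnf168, a ubiquitin ligase gene of break signalling, named after its values were seen, with a control level of 48.8 ± 4.51 CPM and a knockout level of 58.4 ± 1.18 CPM, a difference of 0.26 on the log2 scale (edgeR adjusted p = 0.0773). The count of partner genes that passed was 20 with the length trend removed (19 lower, 1 higher), where 17.9% of tested genes were lower and 16.4% higher. It was 23 without control library 1 (21 lower, 2 higher), where 19.7% were lower and 16.4% higher. It was 16 without control library 2 (2 higher and 14 lower, where 13.7% and 15.7% of tested genes, 29.4% in all, passed). It was 5, all lower, without control library 3, where 12.2% of tested genes passed (7.63% lower, 4.62% higher). It was also 5 without knockout library 1 or 2, and 8 without knockout library 3, where 9.83%, 9.29% and 13.1% of tested genes passed.

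**Figure D5:**
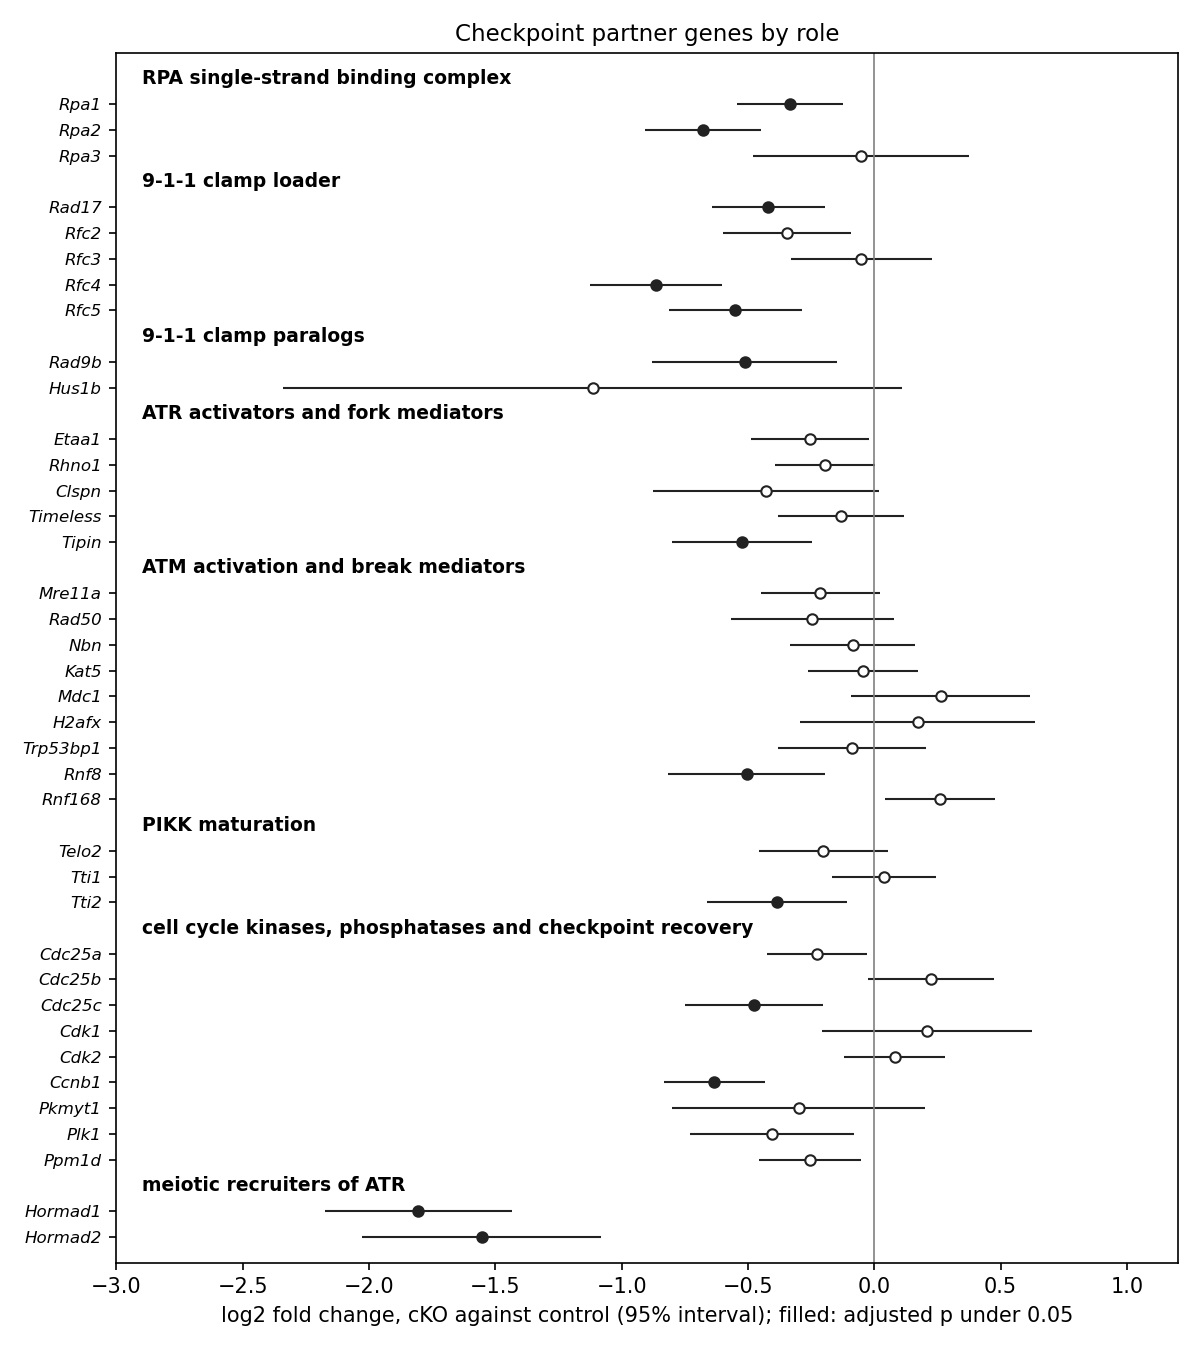
Log2 fold change of 38 checkpoint partner genes by role, knockout against control, with 95% intervals (horizontal axis); filled points have an edgeR adjusted p under 0.05. Hormad1 and Hormad2 lie farthest to the left, at -1.80 and -1.55, and no filled point lies to the right of 0.

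Single-strand binding and clamp loading genes were among those that fell. Of the RPA complex, Rpa2 had control values of 107, 96.1 and 107 CPM, beside knockout values of 59.5, 63.1 and 70.9, a fall of 0.68 on the log2 scale (SE 0.101, edgeR adjusted p = 0.00287) with wide separation of the groups. Rpa1 fell by 0.33 (edgeR adjusted p = 0.03), and Rpa3 was at 12.6 ± 2.74 and 12.1 ± 1.81 CPM. Of the 5 genes whose products load the 9-1-1 clamp, 3 fell, where 13.9% of all tested genes did. Rfc4 measured 42.1, 34.5 and 41.8 CPM across the control set, beside 21.3, 20.4 and 23.3 across the knockout set, 1.82-fold lower (log2 fold change -0.86, edgeR adjusted p = 0.00199). Rfc5 fell by 0.55 and Rad17, which gives the loader its specificity for this clamp, by 0.42, while Rfc3 differed by -0.05. The clamp paralog gene Rad9b fell from 11.6 ± 1.93 to 8.12 ± 0.288 CPM (edgeR adjusted p = 0.0468), and Hus1b was at 1.07 ± 0.306 and 0.50 ± 0.348 CPM (adjusted p = 0.16).

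In the groups of ATR activators and fork mediators (5 genes), ATM activation and break mediators (9 genes) and kinase maturation (3 genes), 1 gene each fell. Beside the 13.9% of all tested genes that fell, these single calls say little about the groups. Tipin, of the fork protection complex, fell by 0.52 (SE 0.122, edgeR adjusted p = 0.0161), while its partner Timeless was at 61.4 ± 5.98 and 56.0 ± 5.20 CPM. Rnf8, a ubiquitin ligase gene of the response to breaks, fell by 0.51 (edgeR adjusted p = 0.0275), and Kat5, whose product acetylates ATM, differed by -0.05. Tti2, of the complex that matures ATM, ATR and related kinases, fell by 0.39 (edgeR adjusted p = 0.0479), and Tti1, of the same complex, differed by 0.04. Among 9 genes of cell cycle kinases, phosphatases and recovery, 2 fell, which beside the same 13.9% also says little about the group. Ccnb1, which encodes cyclin B1, had control values of 122.7, 128 and 128 CPM, beside knockout values of 76.6, 81.9 and 85.8 (log2 fold change -0.63, edgeR adjusted p = 0.0023). Cdc25c, a phosphatase gene that opposes WEE1, fell by 0.48 (adjusted p = 0.0217), and Cdk2 differed by 0.08.

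Both genes whose products recruit ATR to unsynapsed meiotic chromosomes fell furthest among the partners. Hormad1 measured 18.7, 27.2 and 24.3 CPM across the control set, beside 6.63, 6.58 and 6.84 across the knockout set, 3.49-fold lower (log2 fold change -1.80, SE 0.163, edgeR adjusted p = 0.000368). Hormad2 was 2.94-fold lower, from 6.08 ± 0.837 to 2.06 ± 0.0975 CPM (edgeR adjusted p = 0.00202). Hormad1, Hormad2, Rpa2, Rfc4 and Ccnb1 passed as lower with any 1 library left out and under each other setting except scaling to germ-cell genes. With that scaling Hormad1 and Hormad2 did not pass. Rpa2 (0.77), Rfc4 (0.58) and Ccnb1 (0.83) then passed as higher, below the all-gene median of 1.48. The calls of Rpa1, Rad17, Rfc5, Rad9b, Tipin, Rnf8, Tti2 and Cdc25c were lost without control library 3 and without knockout library 1 or 2. Those of Rpa1, Rad9b, Rnf8, Tti2 and Cdc25c were also lost without knockout library 3, and that of Tti2 without control library 2. With the length trend removed Rad9b was at -0.41 (edgeR adjusted p = 0.0633) and Tipin at -0.32 (edgeR adjusted p = 0.0651), both lower but not passing.

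These differences stand beside a loss of germ-cell transcripts from the whole testis. All 21 pan-germ-cell markers fell, where 13.9% of all tested genes fell and 11.1% rose, and their median log2 fold change was -1.39. Their summed level was 1983 to 2758 CPM in controls and 795 to 991 CPM in knockouts. Ddx4, an RNA helicase gene of the germ line, fell from 196 ± 26.8 to 79.2 ± 10.3 CPM, and Dazl, a germ-cell RNA-binding protein gene, from 510 ± 53.9 to 165 ± 19.99 CPM. Of 13 Sertoli cell markers 7 rose and 0 fell, Sox9 among them (0.44, edgeR adjusted p = 0.028), and their summed level was 4349 to 6159 CPM in controls and 5926 to 6823 CPM in knockouts. Higher markers numbered 2 of 7 for Leydig cells, 1 of 7 for myoid cells, 2 of 7 for macrophages, 4 of 6 for endothelial cells and 0 of 5 for erythroid cells, with 0 lower in each of these lists. Single libraries moved these counts. Without control library 1, 11 Sertoli, 7 Leydig and 4 macrophage markers were higher, and without control library 2, 3 myoid and 1 macrophage; in each case 1 myoid marker was lower. Without control library 3, 3 Sertoli, 0 myoid and 1 macrophage marker were higher. Without knockout library 1, 2 or 3 the Sertoli count was 3, 1 and 4 and the endothelial count 0, 0 and 2, while the myoid count was 0, 0 and 1 and the macrophage count 1, 1 and 2. Of the 14424 genes, 475, 450 and 670 were then higher, against 1599 with all libraries. The median log2 fold change of the Sertoli markers was 0.42, 0.46 and 0.46. Without control library 1, 2 or 3, 16.4%, 13.7% and 4.62% of tested genes were higher. The pan-germ-cell count was 20 or 21 lower with any 1 library left out. No marker was at 0 in all libraries. In whole testes, fewer cells of a type and less RNA per cell cannot be told apart, and the part of composition in the checkpoint results was not tested.

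Scaled to the pan-germ-cell genes, all 10 checkpoint genes were higher in the knockouts, by 1.11 (Atr) to 1.47 (Atrip, Hus1, Rad1 and Topbp1) (log2 fold change), against a median over all tested genes of 1.48. By that scaling 93.3% of tested genes passed and 92.6% were higher. The median of the 10 was 1.38. Atrip, Hus1, Rad1 and Topbp1 lay at about the all-gene median and Atr, the lowest, had a 95% interval of 0.72 to 1.51, which includes it. On the same scale 35 of the 38 partner genes were higher and 0 lower. The 3 that did not pass were Hormad1 at -0.32 (95% interval -0.80 to 0.17), Hormad2 at -0.08 (95% interval -0.69 to 0.54) and Hus1b at 0.34 (95% interval -0.72 to 1.40).

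The transcript of the targeted gene, Dcaf2, is listed as Dtl (ENSMUSG00000037474). It had control values of 42.6, 50.3 and 77.4 CPM, beside knockout values of 41.7, 43.8 and 51.5 (log2 fold change -0.31, edgeR adjusted p = 0.281). Without control library 1 it was lower in the knockouts, at -0.51 (adjusted p = 0.0321). Whole-gene counts of whole testes include transcripts that lack only the deleted part and those of somatic cells, so they check the labels only loosely. Library totals ran from 15407007 to 18372964 counts, and Chek2, the lowest of the 10 genes by control FPKM, had 191 to 279 counts per library.

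By position, 5 of the 10 genes (Atm, Atr, Atrip, Chek1 and Topbp1) lie on chromosome 9 in the GENCODE M21 annotation, which holds 5.49% of the genes in the deposited table. The genes were chosen by function, so the share is a description. In that annotation 6 of the 10 overlap no other gene. Atrip overlaps Trex1 on the same strand (68 to 145 counts per library), Rad9a overlaps Ppp1ca on the opposite strand (3799 to 6508 counts), and Atr and Wee1 overlap antisense genes not matched in the table used here. Atr also overlaps Gm24004, a small nuclear RNA gene on its own strand, likewise not matched. No source used here says whether counting used the strand, which in any case could not separate pairs on the same strand. Overlap was read over whole gene spans, and shared exon bases were not measured. Reads of such pairs may therefore be mixed, and the values of these 4 genes are less certain.

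The 250 bases before the start were read for 8 of the 10 genes in a RefSeq promoter table (GRCm38.p6), which has no entry under the symbols Rad9a and Wee1. An E2F-like match, defined as TTTGGCGC, TTTCCCGC, TTTGCCGC or TTTCGCGC on either strand, was found for Topbp1 and Chek2, 2 of the 8, and in 1.86% of 32851 promoter windows of this length. E2F factors are known regulators of S phase genes. CCAAT on either strand was found for Atm, Atrip and Chek2, and in 33.9% of windows, and the 2 motifs do not share letters. The other motifs searched were GGGCGG, found for 4 of the 8 and in 32.7% of windows, and TTTGAA, found for Hus1 and in 16.0%, each on either strand. For the 8, genes were counted with a match in any window, while the shares count single windows. The windows behind the shares were not matched for GC content, which was 52.0% to 73.2% for the 8. The counts and the shares are therefore not directly comparable. The windows with an E2F-like match are shown 5′ to 3′ on the gene's strand, with E2F-like and CCAAT matches in capitals. The E2F-like match starts at base -129 in Topbp1 (chr9:103305077-103305326, + strand) and at base -152 in Chek2 (chr5:110839733-110839982, + strand), counted back from the start, and both read on the opposite strand.
Topbp1: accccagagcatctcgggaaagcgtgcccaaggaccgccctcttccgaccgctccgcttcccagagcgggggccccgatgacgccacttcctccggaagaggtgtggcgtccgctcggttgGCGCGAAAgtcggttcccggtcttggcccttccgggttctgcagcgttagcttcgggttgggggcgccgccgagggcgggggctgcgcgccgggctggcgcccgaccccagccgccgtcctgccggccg
Chek2: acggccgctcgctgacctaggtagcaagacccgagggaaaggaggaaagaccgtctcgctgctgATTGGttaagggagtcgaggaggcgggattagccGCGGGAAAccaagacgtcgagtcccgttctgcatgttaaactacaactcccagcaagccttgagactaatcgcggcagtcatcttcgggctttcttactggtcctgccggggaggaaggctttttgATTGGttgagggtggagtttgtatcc
The log2 fold changes of these 2 genes were -0.01 and -0.19, and neither passed. A match in letters is a description of the window and does not show binding.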

How the data were processed

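Whole-testis messenger RNA was measured in 6 libraries. For every gene and library, the table the authors deposited holds 1 count and 1 FPKM value. StringTie 1.3.1 and RSEM are named, with no role, per the submitters' processing notes. Aligner, genome build, annotation and strand setting were not named in any source used here. The deposited counts were taken as estimated counts already rounded to whole numbers, since 3 to 21 genes per library had count 0 beside an FPKM above 0. The FPKM values, scaled by the authors to length and library size, served for levels and for effective length (count divided by FPKM and library total).

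Symbols were assigned by Ensembl ID for 22219 of 22274 genes. Genes were filtered with filterByExpr (minimum count 10), which left 14424 genes and left out 0.063% of counts. Counts were scaled by TMM and tested with the quasi-likelihood test of edgeR 4.0.16 (R 4.3.3) without covariates, with Benjamini-Hochberg adjustment over all tested genes at 0.05. Depth was 15407007 to 18372964 counts per library. SE is the size of the log2 fold change divided by the square root of F. The procedure was tested on simulated counts. Ratios were compared by exact permutation over libraries. Alternatives were DESeq2 1.42.0, limma-voom (limma 3.58.1), scaling by RLE, upper quartile, total count or 21 pan-germ-cell genes, no filter, a stricter filter (CPM 1 or more in 3 or more libraries), a replicate block, removal of the length trend (lowess, span 0.3) and leaving out each library. The length trend combined with leaving out a library or with the block was chosen after seeing the data.

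The members and lists were chosen with earlier results of these data known. The text names all 10 members, Dtl, in each partner group the genes past the threshold and the 1 with the largest p, and the markers Ddx4, Dazl and Sox9.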

Additional observations from a re-analysis of the deposited data

How the results depend on the processing

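Apart from scaling by pan-germ-cell genes, the count of checkpoint genes past the threshold stayed at 0 under DESeq2, limma-voom, the other scalings, both filters and the replicate block. It was 10 with pan-germ-cell scaling, 1 with the length trend removed, 0 to 3 with 1 library left out, 1 to 4 with the length trend removed and 1 library left out, and 2 with the length trend removed and the replicate block. The partner count was 35, 20, 5 to 23, 9 to 26 and 19 in the same order, against 13. All changed genes numbered 3607, and 13454 with pan-germ-cell scaling, 4953 with the length trend removed, 1355 to 5255 with 1 library left out and 2753 to 5805 with the length trend also removed. The split of 1599 higher and 2008 lower was 1109 and 2424 with total-count scaling. The count of all changed genes rose to 5255 without control library 1 and to 4277 without control library 2, and fell without any other library. The causes of these shifts were not tested.

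With pan-germ-cell scaling the sign turned for Atm (1.29), Atr (1.11), Rad9a (1.39), Topbp1 (1.47), Chek1 (1.22), Chek2 (1.27) and Wee1 (1.37). Genes near 0 turned sign without passing: Atrip with upper-quartile (-0.0038) and total-count scaling (-0.042), Rad9a with the length trend removed (0.014), Rad1 with total-count scaling (-0.028), and Hus1 with DESeq2 (-0.011), RLE (-0.011), upper-quartile (-0.019) and total-count scaling (-0.059), no filter (-0.0032) and the length trend removed (-0.11). With 1 library left out the ranges were -0.60 to 0.16 for Atm, -0.033 to 0.086 for Atrip, -0.14 to 0.0092 for Rad9a, -0.060 to 0.047 for Hus1, -0.046 to 0.15 for Rad1 and -0.18 to 0.067 for Topbp1. Ratios whose groups did not overlap numbered 1 to 4 with 1 library left out, with no share over other gene pairs to set beside them. The ratio differences then ranged from -0.45 to 0.28 for Chek2 to Atm, -0.068 to 0.31 for Chek1 to Atr and -0.21 to 0.080 for Hus1 to Rad1.

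Same-numbered control and knockout libraries did not deviate together (correlations of -0.08, -0.10 and 0.09 for numbers 1, 2 and 3). No library correlated best with its own number, so the numbers were not taken as pairs. With the replicate block 2822 genes, 0 checkpoint genes and 8 partner genes passed; the calls of Rpa1, Rad9b, Rnf8, Tti2 and Cdc25c were lost. With limma-voom that of Rad9b was lost.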

Other observations

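Some partner genes outside the naming rule, chosen after their values were seen, also had control library 1 apart from the other controls. Cdk1, the mitotic kinase gene held in check by WEE1, measured 115 CPM in control library 1 but 71.5 and 76.8 CPM in the other controls, beside knockout levels of 85.6, 108 and 111 CPM. Its log2 fold change was 0.21 (edgeR adjusted p = 0.435), and it was the 1 partner gene that was higher with the length trend removed (0.38, adjusted p = 0.0333). H2afx, which encodes the histone variant phosphorylated by ATM at breaks, measured 113, 63.3 and 65.6 CPM across the control set, beside 83.4, 98.3 and 90.5 across the knockout set (log2 fold change 0.17). Mdc1, whose product binds that phosphorylated histone, was lowest in control library 1, at 87.3 CPM against 141 and 116 CPM, beside knockout levels of 131, 136 and 145 CPM (log2 fold change 0.26). Clspn, which encodes the adaptor between ATR and CHK1, had control values of 55.5, 99.1 and 84.0 CPM, beside knockout values of 55.2, 53.3 and 68.7, a log2 fold change of -0.43 (edgeR adjusted p = 0.142). Without control library 1 the differences were 0.43 for Cdk1 (edgeR adjusted p = 0.0131), 0.47 for H2afx (0.00285), 0.07 for Mdc1 (0.561) and -0.66 for Clspn (0.00186). With the length trend removed and all libraries kept, they were 0.34 for H2afx (edgeR adjusted p = 0.0797), 0.16 for Mdc1 (0.254) and -0.50 for Clspn (0.0297).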
